A study of Chlorocebus sabaeus with 32 samples.

Results

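The genes CAMK2A, CAMK2B, CAMK2D and CAMK2G, which encode the alpha, beta, delta and gamma subunits of calcium/calmodulin-dependent protein kinase II (CaMKII), were examined together with CAMK4, the gene of CaM kinase IV, and NRGN, the gene of neurogranin. They were chosen by gene symbol, with earlier results of these data known, and are 6 of 33994 gene rows in a table of RNA-sequencing counts from the hippocampus of 32 vervet monkeys (Chlorocebus sabaeus). All 32 libraries carry the same label for age, under 1 yr, and none belongs to a treated or diseased group. The libraries were grouped by the 4 digits that open their titles, which gave 16 libraries named prefix-2010 here, 14 named prefix-2009 and 2 named prefix-2011. A second number in the title was high (20000 or more) in 9 of the libraries of prefix-2010 and low in the other 7, low in all 14 of prefix-2009 and high in both of prefix-2011. The labels do not state what the prefix or the number stands for, so differences between them are differences between sets of titles and nothing more. Sex, exact age and processing batch are not given in the labels used here, and each title was taken as 1 animal.

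Calcium that enters a neuron through NMDA receptors binds calmodulin, and calcium-loaded calmodulin activates the CaM kinases. CaMKII is a large multi-subunit kinase that can phosphorylate itself and then remain active after calcium has fallen, and its alpha subunit is abundant at the postsynaptic side of excitatory synapses in hippocampus, where it is needed for long-term potentiation. The beta subunit also binds actin, while the delta and gamma subunits are made in many tissues. CaM kinase IV is activated by the CaM kinase kinases and phosphorylates the transcription factor CREB in the nucleus. Neurogranin is a small postsynaptic protein that holds calmodulin while calcium is low. In rat forebrain, the beta subunit is known to precede the alpha subunit after birth, which is why the ratio of CAMK2A to CAMK2B is of interest in young hippocampus.

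Library depth was 9347635 to 19673621 gene counts, with a median of 15770540 in prefix-2010 and 17570540 in prefix-2009. Of the hippocampal markers, PROX1 of dentate granule cells was at 20.2 to 186 counts relative to library size (CPM) and RGS14 of area CA2 at 25.3 to 207 CPM. C1QL2 of dentate granule cells fell to 4.31 CPM in its lowest library. For the other CA field markers the lowest level was 36.9 CPM for WFS1, 11.5 for FIBCD1, 2.68 for POU3F1 and 2.96 for MPPED1. The dentate markers DSP and TDO2 averaged 0.371 and 0.268 CPM and did not pass the count filter. A pair of libraries stood apart. Replicate 2 of prefix-2010 had 514 summed CPM over 7 striatal and thalamic markers, against at most 187 CPM in any other library, and the lowest sum over 6 excitatory neuron markers, 495 CPM. Replicate 1 of prefix-2009 had the lowest depth, the largest share of reads outside annotated features (67.1%) and the second lowest excitatory sum, 630 CPM. Over PROX1 and C1QL2 the sums were 32.6 CPM in the former and 43.7 CPM in the latter, where the medians of their prefixes were 157 and 207 CPM. Results that rest on these libraries are given with and without them.

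Each of the 6 genes was well counted in every library. The smallest count of any of them was 594, for NRGN, where counting error alone has a standard deviation of 4.1%, and the smallest count of CAMK2A was 13545. CPM are not divided by transcript length, so levels are compared between libraries and not between genes. The genes differed in how much they varied: the biological coefficient of variation (the square root of edgeR's dispersion) was 0.323 for CAMK2D, 0.255 for NRGN, 0.244 for CAMK2A, 0.183 for CAMK2B, 0.157 for CAMK4 and 0.101 for CAMK2G, beside a median of 0.157 over 19959 genes. CAMK2D spanned 3.60-fold over the 32 libraries and CAMK2G 1.62-fold.

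CAMK2A was lower in libraries of prefix-2010 than in those of prefix-2009. Its lowest, median and highest levels were 1323, 1872 and 2828 CPM in prefix-2010 and 1356, 2513 and 3021 CPM in prefix-2009. The prefixes overlapped, but 14 of 16 libraries of prefix-2010 lay below the median of prefix-2009, and 10 lay below its second lowest library. The means were 1914 ± 473 CPM in prefix-2010 (SD, n = 16) and 2481 ± 412 CPM in prefix-2009 (SD, n = 14). By edgeR's quasi-likelihood test the log2 difference was -0.37 ± 0.11 (SE), with an adjusted p of 0.0255 over 23977 genes. It was the 1 of 6 members called at an adjusted p under 0.05, and it was called lower, where 5.36% of all genes tested were called lower, 7.12% higher and 12.5% in either direction. Without the pair of libraries that stood apart the difference was -0.40 ± 0.096 (adjusted p 0.00523 by the same test).

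The other CaMKII subunits did not pass that test. CAMK2B had 598, 918 and 1069 CPM as its lowest, median and highest levels in prefix-2010, against 453, 985 and 1134 CPM in prefix-2009, with a log2 difference of -0.15 ± 0.096 (adjusted p 0.334, and 0.0452 at a difference of -0.21 without replicate 1 of prefix-2009). Of the 32 fits that left out 1 library, that was the 1 in which CAMK2B was called, with adjusted p of up to 0.450. The lowest library of prefix-2009 is replicate 1, and the next lowest had 883 CPM, which 7 of the 16 libraries of prefix-2010 fell below. CAMK2D had 64.0, 101 and 230 CPM in prefix-2010, against 63.9, 85.2 and 178 CPM in prefix-2009, with a log2 difference of 0.22 ± 0.17 (adjusted p 0.423). Its highest value in prefix-2010 is that of replicate 2, the library high in striatal and thalamic markers. CAMK2G, the least variable member, had 180.2, 194 and 239.9 CPM in prefix-2010, against 160.0, 204 and 259.6 CPM in prefix-2009, and its log2 difference was -0.017 ± 0.050 (adjusted p 0.870). The ranges of all 3 genes overlapped almost wholly between the prefixes.

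CAMK4 and NRGN did not pass it either. CAMK4, the nuclear kinase, had 95.7, 129 and 194 CPM in prefix-2010, against 78.9, 128 and 142 CPM in prefix-2009, and the log2 difference was 0.076 ± 0.083 (adjusted p 0.603). Its levels were more spread in prefix-2010, with an SD of 25.4 CPM around a mean of 131 CPM (n = 16), than in prefix-2009, with an SD of 14.97 CPM around a mean of 124.5 CPM (n = 14). This difference in spread was not tested. NRGN had 48.4, 59.1 and 116 CPM in prefix-2010, against 41.2, 63.3 and 106 CPM in prefix-2009, with a log2 difference of 0.085 ± 0.13 (adjusted p 0.730). No library of prefix-2010 had less NRGN than the lowest library of prefix-2009.

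**Figure D1:**
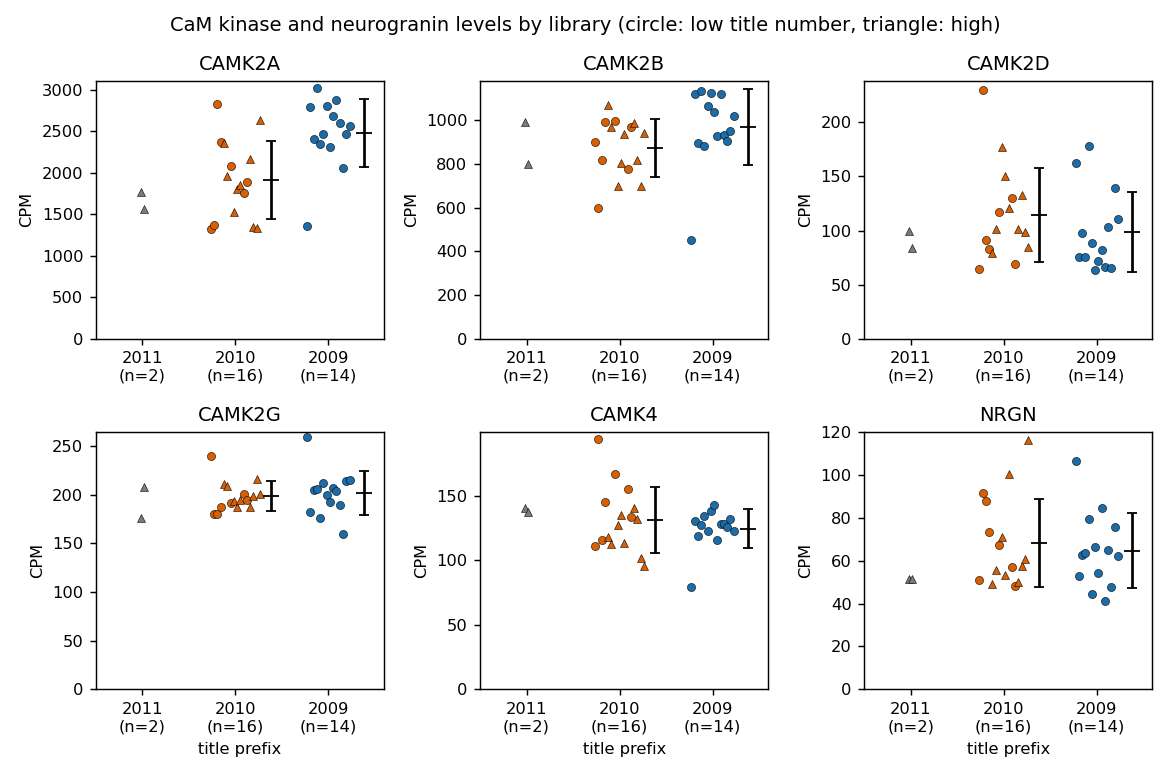
Levels of the 6 genes in CPM (vertical axes, each starting at 0) in every library, by title prefix; circles are libraries with a low title number, triangles those with a high one, and the bar beside a group is its mean ± SD. CAMK2A has a lower mean in prefix-2010 (1914 CPM) than in prefix-2009 (2481 CPM), and the ranges of all 6 genes, CAMK2A included, overlap broadly between these prefixes.

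The ratio of CAMK2A to CAMK2B counts, which does not depend on how libraries are scaled, was also lower in prefix-2010. The lowest, median and highest ratios were 1.47, 2.19 and 3.46 in prefix-2010 and 2.23, 2.58 and 2.99 in prefix-2009. Of the 16 libraries of prefix-2010, 10 lay below every library of prefix-2009, but replicate 3 of prefix-2010, at 3.46, lay above them all. The mean log2 ratio was 1.11 ± 0.28 in prefix-2010 (SD, n = 16) and 1.36 ± 0.12 in prefix-2009 (SD, n = 14). The difference of -0.25 had an adjusted p of 0.00747 in a two-sided permutation test of 100000 resamples, adjusted over 7 ratios and shares.

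**Figure D2:**
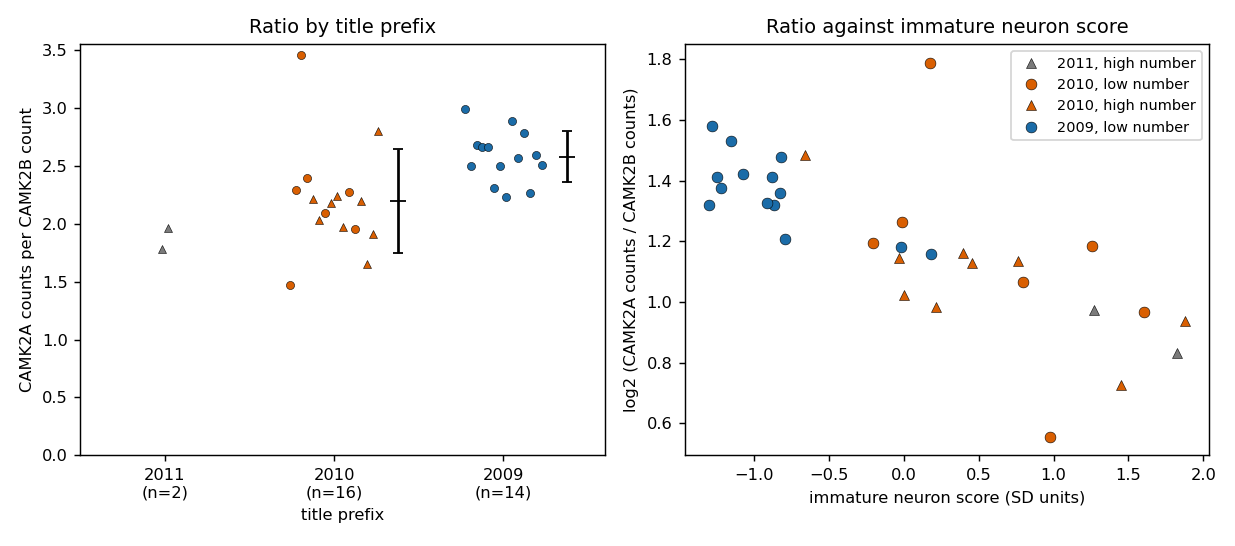
Left, CAMK2A counts per CAMK2B count in each library by title prefix, with mean ± SD bars; right, the log2 of that ratio against the immature neuron score in SD units, with circles for low and triangles for high title numbers. Ratios run from 1.47 to 3.46 in prefix-2010 and from 2.23 to 2.99 in prefix-2009, and libraries with higher scores have lower ratios (r = -0.75).

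Within the summed counts of the CAMK2 genes, alpha made up less and beta more in prefix-2010. CAMK2A took 61.1% ± 4.94 of these counts in prefix-2010 and 65.9% ± 2.10 in prefix-2009 (SD, n = 16 and 14). That difference of -4.87 percentage points had an adjusted p of 0.00747 in the permutation test. CAMK2B took 28.4% ± 3.41 in prefix-2010 and 25.7% ± 2.15 in prefix-2009, and the adjusted p was 0.0255. CAMK2D took 3.92% ± 2.06 in prefix-2010 and 2.80% ± 1.59 in prefix-2009 (adjusted p 0.108), and CAMK2G 6.61% ± 1.43 in prefix-2010 and 5.58% ± 1.79 in prefix-2009 (adjusted p 0.105). Without the pair of libraries that stood apart the adjusted p was 0.0266 for the CAMK2D share and 0.00332 for the CAMK2G share, both higher in prefix-2010. The shares are parts of 1 sum, so a lower CAMK2A share raises the others, and they are not independent of its lower level. In their own levels CAMK2B differed by -0.15 ± 0.096 log2 units, CAMK2D by 0.22 ± 0.17 and CAMK2G by -0.017 ± 0.050, and none was called. Shares are of counts, not of molecules, because the transcripts differ in length.

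**Figure D3:**
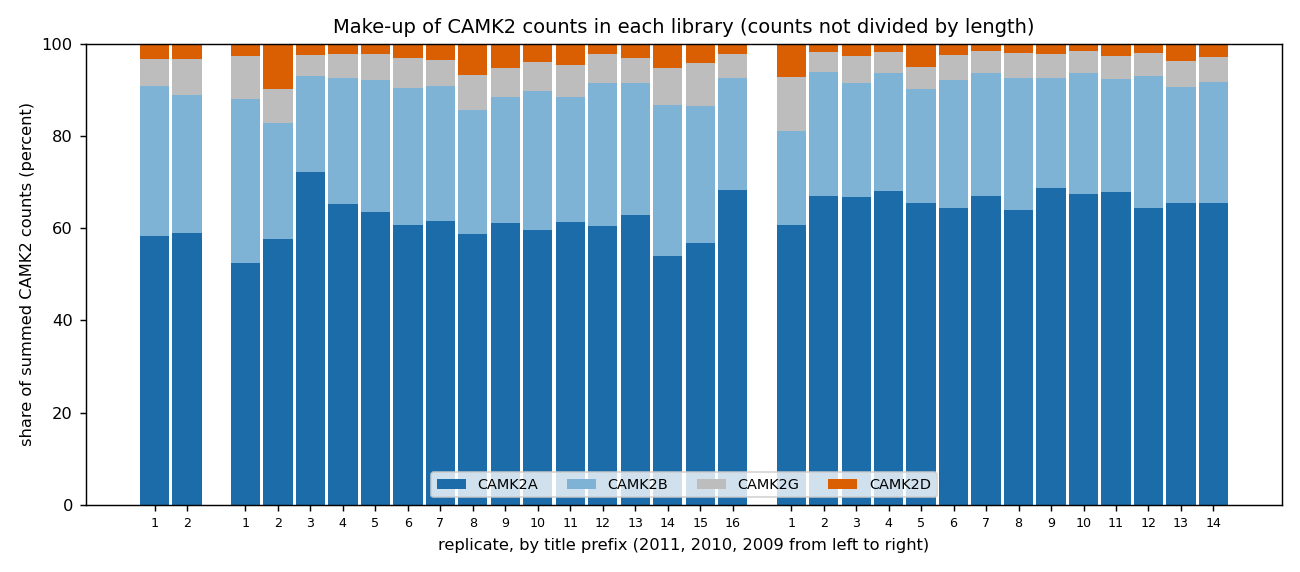
Share of the summed CAMK2 counts in percent (vertical axis) that fell to each subunit gene in every library; each bar is 1 library, in blocks of prefix-2011, prefix-2010 and prefix-2009 from left to right. CAMK2A averages 61.1% in prefix-2010 and 65.9% in prefix-2009, and replicate 2 of prefix-2010 has the largest CAMK2D share, 9.67%.

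On the log2 scale NRGN and CAMK4 were higher relative to CAMK2A in prefix-2010. There were 0.0371 ± 0.0123 NRGN counts per CAMK2A count in prefix-2010 and 0.0280 ± 0.0155 in prefix-2009 (SD, n = 16 and 14), and the log2 ratio differed by 0.46 (adjusted p 0.0285, permutation test). The difference of the ratios themselves, 0.00905, did not pass (adjusted p 0.105, permutation test). There were 0.0729 ± 0.0249 CAMK4 counts per CAMK2A count in prefix-2010 and 0.0509 ± 0.00641 in prefix-2009, and the log2 ratio differed by 0.45 (adjusted p 0.00747, permutation test). Both ratios have CAMK2A below the line, so they are not independent of its lower level. In the low-numbered libraries, the CAMK4 ratio was 0.0808 ± 0.0312 in prefix-2010, between 0.0408 and 0.141 (SD, n = 7), and 0.0509 ± 0.00641 in prefix-2009, between 0.0421 and 0.0617 (SD, n = 14). The NRGN ratio no longer passed without replicate 6 or 10 of prefix-2009 or replicate 2 of prefix-2010, where its log2 difference was 0.40 to 0.42.

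Since every title of prefix-2009 has a low number, the low-numbered libraries were also compared alone. CAMK2A had a log2 difference of -0.35 ± 0.14 between the 7 low-numbered libraries of prefix-2010 and the 14 of prefix-2009, close to that over all numbers, with an adjusted p of 0.145. Without replicate 1 of prefix-2009 its adjusted p was 0.0396 by the same edgeR test. Of the 32 fits that left out 1 library, that was the 1 in which it was called, with adjusted p of up to 0.292. With all libraries in the fit no member was called among low numbers, where 5.54% of 23977 genes were, 3.56% higher and 1.98% lower. CAMK4 differed by 0.23 ± 0.096 (adjusted p 0.151) and by 0.10 without the pair of libraries that stood apart. Of the 7 ratios and shares, the CAMK4 to CAMK2A ratio passed, with a log2 difference of 0.59 (adjusted p 0.00746, exact permutation test). The log2 CAMK2A to CAMK2B ratio was 1.15 ± 0.37 in the low-numbered libraries of prefix-2010 and 1.36 ± 0.12 in those of prefix-2009, and the adjusted p of the exact permutation test was 0.123.

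Within prefix-2010, no member differed between high and low title numbers beyond the threshold of the test. CAMK2A had 1888 ± 448 CPM with a high number (SD, n = 9) and 1947 ± 538 CPM with a low one (SD, n = 7). CAMK4 had 119 ± 15.3 CPM with a high number and 146 ± 29.2 CPM with a low one, and its log2 difference of -0.28 ± 0.10 had an adjusted p of 0.281. None of the 6 genes and 0% of all genes were called by edgeR's quasi-likelihood test, with 2930 of 23977 genes at an unadjusted p under 0.05, while DESeq2 called 17 higher and 93 lower. None of the 7 ratios and shares passed the exact permutation test.

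**Figure D4:**
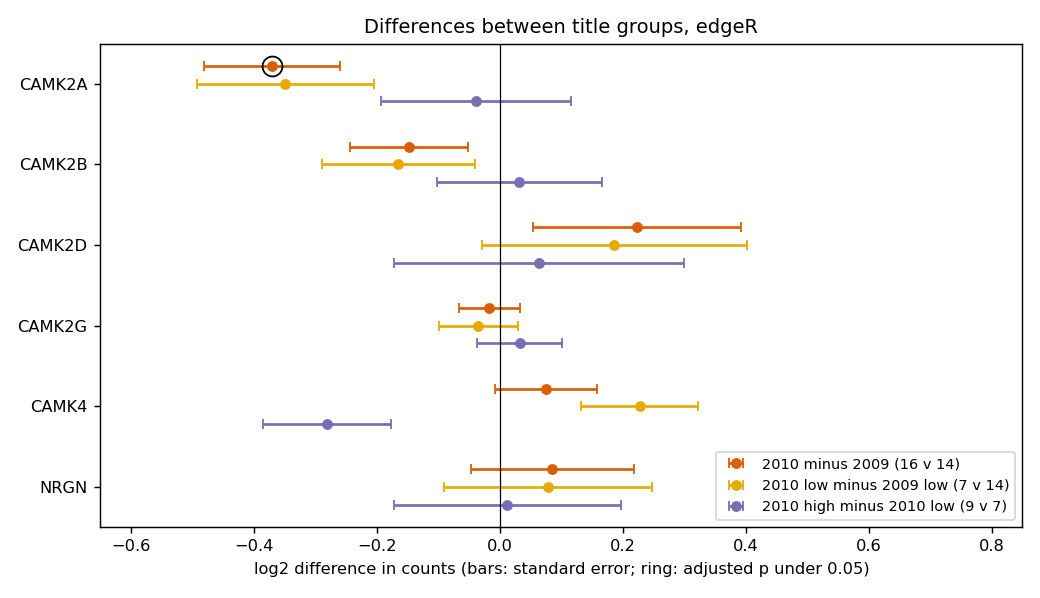
Log2 differences of the 6 genes with standard error bars (horizontal axis) for prefix-2010 minus prefix-2009, for the same among low title numbers, and for high minus low title numbers within prefix-2010. The ringed point, CAMK2A at -0.37, is the one difference with an adjusted p under 0.05.

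Markers of young neurons moved with the prefixes too. Of 11 immature neuron markers past the count filter, 10 were called higher in prefix-2010 than in prefix-2009 by edgeR's test, where 7.12% of all genes were, and their summed level was 893 to 2410 CPM in prefix-2010 and 761 to 1381 CPM in prefix-2009. DCX, a microtubule protein of migrating young neurons, averaged 74.4 CPM in prefix-2010 and 46.2 CPM in prefix-2009. Of 6 excitatory neuron markers, 5 had lower means in prefix-2010, and 1 of them was called: the glutamate transporter SLC17A7, at 445 CPM in prefix-2010 and 653 CPM in prefix-2009 on average. Over all genes tested, 5.36% were called lower. The excitatory sum was 495 to 1720 CPM in prefix-2010 and 630 to 2237 CPM in prefix-2009. All 5 inhibitory neuron markers had higher means in prefix-2010 and 3 of them were called, where 7.12% of all genes were called higher. Their sum was 330 to 494 CPM in prefix-2010 and 289 to 414 CPM in prefix-2009. In bulk tissue, fewer cells of a type cannot be told apart from less RNA per cell.

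When the immature neuron score was added to the model, the CAMK2A difference between prefixes was -0.056 ± 0.16 (adjusted p 0.996), and 0 genes of the whole table were called by edgeR, where 2991 were called without it. In that fit the NRGN difference was 0.60 ± 0.17 (unadjusted p 0.00121, adjusted p 0.909), where it was 0.085 ± 0.13 without the score. The CAMK2D difference was 0.52 ± 0.27 (adjusted p 0.971) and that of CAMK2B -0.13 ± 0.15 (adjusted p 0.980). CAMK2G and CAMK4 were at 0.0069 and 0.0092. The score is the mean of z-scored log2 CPM over the markers, scaled to an SD of 1, and averaged 0.57 in prefix-2010 and -0.87 in prefix-2009, so prefix and score overlap. With the excitatory neuron score as a covariate the CAMK2A difference was -0.18 ± 0.087 (adjusted p 0.226), and with the striatal and thalamic score, added after the data were seen, -0.27 ± 0.12 (adjusted p 0.136). With the mature myelin score it was -0.38 ± 0.11 (adjusted p 0.0199) and with the share of reads in no feature -0.38 ± 0.11 (adjusted p 0.0132), both by edgeR's test.

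Over all 32 libraries, CAMK2A fell as the immature neuron score rose. Its slope was -0.25 ± 0.049 log2 units per SD of the score (adjusted p 0.00018, edgeR's quasi-likelihood test over 19948 genes). It was the 1 member called, in a fit in which 31.7% of all genes were called, 16.1% with a negative slope. NRGN had a slope of -0.14 ± 0.063 (adjusted p 0.0840), CAMK2B -0.061 ± 0.046 (adjusted p 0.330), CAMK2D -0.010 ± 0.086 (adjusted p 0.943), CAMK2G -0.020 ± 0.024 (adjusted p 0.555) and CAMK4 0.052 ± 0.040 (adjusted p 0.338). Without the pair of libraries that stood apart the CAMK2B slope of -0.087 ± 0.031 also passed (adjusted p 0.0278).

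With title prefix in the model the order changed. NRGN then had the steeper slope, -0.37 ± 0.092 (adjusted p 0.00922), and that of CAMK2A was -0.23 ± 0.086 (adjusted p 0.0932). Fitted separately, the NRGN slope was -0.33 ± 0.10 within prefix-2010 (adjusted p 0.0525) and -0.41 ± 0.18 within prefix-2009 (adjusted p 0.464). The CAMK2A slope was -0.26 ± 0.096 within prefix-2010 (adjusted p 0.108) and -0.089 ± 0.17 within prefix-2009 (adjusted p 0.917). The difference of slopes between prefixes was not called for any member or for any of 20026 genes by edgeR, with 669 at an unadjusted p under 0.05.

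The CAMK2A to CAMK2B ratio followed the immature neuron score. Pearson's r of the log2 ratio with the score was -0.75 and Spearman's rho -0.82 over 32 libraries, with adjusted permutation p of 0.000385 and 0.000257, over 77 relations of 7 measures with 11 list scores. Without the 2 libraries farthest from the median score r was -0.72. Within prefix-2010 r was -0.57 (n = 16, adjusted p 0.0967) and within prefix-2009 -0.67 (n = 14, adjusted p 0.0772), so the sign held within each prefix and the adjusted permutation test was not passed in either. Spearman's rho was -0.69 within prefix-2010 and -0.45 within prefix-2009. Without the pair of libraries that stood apart r was -0.74 over both prefixes and prefix-2011 (adjusted permutation p 0.000154). The log2 ratio also passed with the inhibitory neuron (r = -0.51, adjusted permutation p 0.0159), mature myelin (0.49, 0.0205) and microglia scores (0.49, 0.0205). Within prefix-2010 these r were -0.65, 0.63 and 0.66, and all passed (adjusted p 0.0274, 0.0461 and 0.0398). Within prefix-2009 they were 0.15, 6.9e-05 and 0.23, and none passed. The levels and scores come from the same libraries and share their depth and composition.

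Both main CaMKII subunits followed the excitatory neuron score. CAMK2B had r = 0.82 and rho = 0.85 with it (adjusted permutation p 0.000513 and 0.000257), r = 0.83 without the 2 farthest libraries, 0.87 within prefix-2010 (adjusted p 0.00077) and 0.92 within prefix-2009 (adjusted p 0.00077). CAMK2A had r = 0.76 and rho = 0.73 (adjusted permutation p 0.000385 and 0.000257), with 0.78 without the 2 farthest libraries, 0.70 within prefix-2010 (adjusted p 0.0134) and 0.88 within prefix-2009 (adjusted p 0.0133). CAMK2D ran the other way, with r = -0.67 and rho = -0.62 (adjusted permutation p 0.00077 and 0.00167), -0.65 without the 2 farthest libraries, -0.63 within prefix-2010 (adjusted p 0.0608) and -0.79 within prefix-2009 (adjusted p 0.0133). Within prefix-2009 rho was 0.89 for CAMK2B, 0.70 for CAMK2A and -0.73 for CAMK2D. Without the pair of libraries that stood apart r was 0.89, 0.75 and -0.52 in that order (adjusted permutation p 0.000154, 0.000154 and 0.0117). Thus the alpha and beta genes were high in the libraries with high excitatory markers, and the delta gene was low in them.

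CAMK2D also followed the striatal and thalamic score, with r = 0.66 and rho = 0.57 (adjusted permutation p 0.00077 and 0.00741). That relation weakened to r = 0.44 without the 2 farthest libraries (adjusted p 0.0687) and was 0.59 without the pair that stood apart (adjusted p 0.00323). CAMK2A fell with the inhibitory neuron score, with r = -0.67 and rho = -0.66 (adjusted permutation p 0.00077 for both) and -0.62 without the 2 farthest libraries. That r was -0.87 within prefix-2010 (adjusted p 0.00077) and -0.29 within prefix-2009 (adjusted p 0.495), and the difference between them was not tested.

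NRGN rose with 4 of the 11 scores, most closely with those of astrocytes and microglia. Its r was 0.59 with the astrocyte score (rho = 0.54, adjusted permutation p 0.00402 and 0.0119) and 0.57 with the microglia score (rho = 0.54, adjusted permutation p 0.00447 and 0.0119). Without the 2 farthest libraries these were 0.51 (adjusted p 0.0302) and 0.37 (adjusted p 0.142), and without the pair that stood apart 0.53 (adjusted p 0.0116) and 0.51 (adjusted p 0.0183). Within prefix-2010 they were 0.74 and 0.73 (adjusted p 0.0134 for both), and within prefix-2009 0.51 and 0.48 (adjusted p 0.178 and 0.218). NRGN also had r = 0.45 with the striatal and thalamic score (rho = 0.54, adjusted permutation p 0.0291 and 0.0119) and 0.43 with the mature myelin score (rho = 0.43, adjusted permutation p 0.0450 and 0.0437). Without the 2 farthest libraries these were 0.46 (adjusted p 0.0482) and 0.53 (adjusted p 0.0240), and without the pair that stood apart 0.39 (adjusted p 0.0851) and 0.41 (adjusted p 0.0734). Within prefix-2010 they were 0.48 and 0.52 and within prefix-2009 0.43 and 0.23, and none of these passed. With the oligodendrocyte precursor score NRGN had r = 0.060 and with the excitatory score -0.29, and neither passed. CAMK4 and CAMK2G had no relation with any of the 11 scores that passed by Pearson's r over all libraries. CAMK2G had r = -0.41 with the mature myelin score (adjusted permutation p 0.0591) and rho = -0.44, which passed (adjusted p 0.0416). That r was -0.18 without the 2 farthest libraries (adjusted p 0.548), -0.69 within prefix-2010 (adjusted p 0.0197), -0.30 within prefix-2009 (adjusted p 0.479) and -0.65 without the pair that stood apart (adjusted p 0.000941). Over the 77 relations, 11 positive and 13 negative ones passed.

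**Figure D5:**
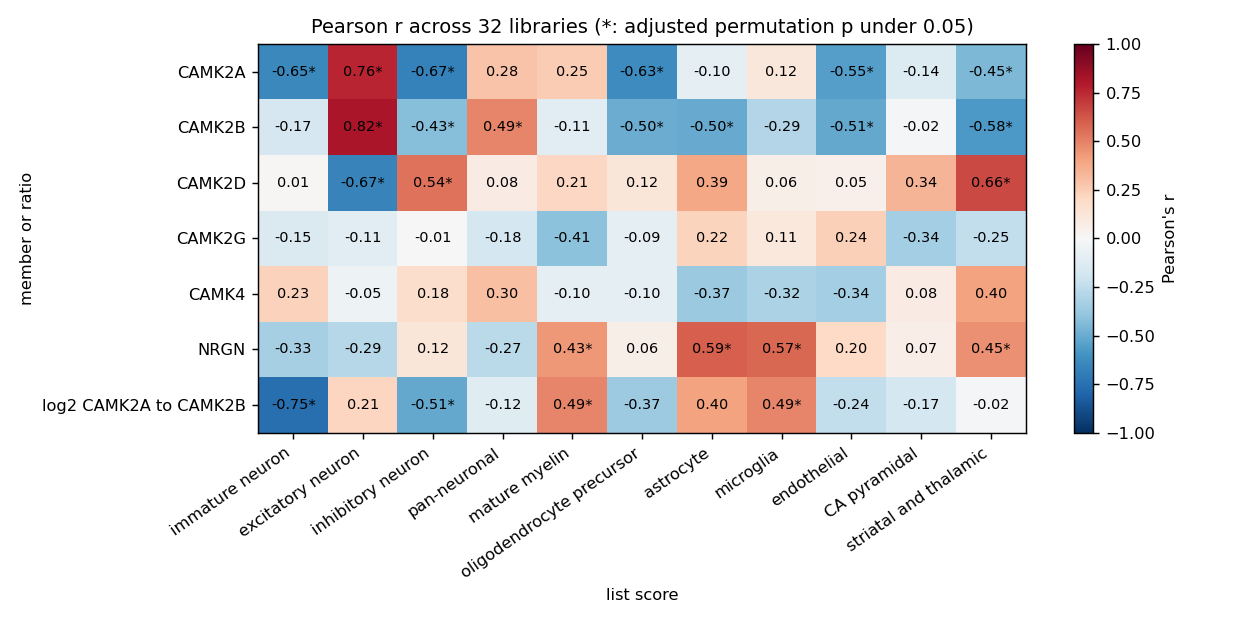
Pearson's r over 32 libraries between the log2 CPM of each member, or the log2 CAMK2A to CAMK2B ratio (rows), and the score of each marker list (columns), in color from -1 to 1 with the value printed and a star where the adjusted permutation p is under 0.05. CAMK2A and CAMK2B have their highest r with the excitatory neuron score (0.76 and 0.82), CAMK2D has -0.67 there, and the ratio has -0.75 with the immature neuron score.

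Among the 6 genes themselves, 2 of 15 pairs rose together and 4 ran in opposite directions. CAMK2A and CAMK2B had r = 0.73 and rho = 0.67 (adjusted permutation p 0.00015 and 0.0006), 0.75 without the 2 farthest libraries, 0.62 within prefix-2010 (adjusted p 0.0736) and 0.93 within prefix-2009 (adjusted p 0.00465). CAMK2B and CAMK2D had r = -0.66 and rho = -0.58 (adjusted permutation p 0.000525 and 0.005), -0.55 without the 2 farthest libraries, -0.72 within prefix-2010 (adjusted p 0.0228) and -0.64 within prefix-2009 (adjusted p 0.0322). CAMK2G and CAMK4 had r = -0.59 and rho = -0.56 (adjusted permutation p 0.0039 and 0.005), -0.50 without the 2 farthest libraries, -0.56 within prefix-2010 and -0.69 within prefix-2009. Of these, the first 2 pairs passed without the pair of libraries that stood apart, and CAMK2G with CAMK4 was at -0.38 (adjusted p 0.200). The rho of CAMK2A with CAMK2B within prefix-2009 was 0.77.

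The remaining called pairs were weaker. CAMK2D and NRGN had r = 0.47, CAMK2A and CAMK2D -0.45, and CAMK2B and NRGN -0.46, each with an adjusted permutation p of 0.0235. In the same order, rho was 0.49, -0.41 and -0.35 (adjusted permutation p 0.0172, 0.0651 and 0.129). Without the 2 farthest libraries r was 0.38, -0.62 and -0.20 (adjusted p 0.117, 0.00285 and 0.528). Within prefix-2010 it was 0.28, -0.40 and -0.24, and none passed. Within prefix-2009 it was 0.69, -0.52 and -0.69 (adjusted p 0.0322, 0.0852 and 0.0282). Without the pair of libraries that stood apart r was 0.33, -0.30 and -0.20, and none passed.

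Among genes around the kinases in the calmodulin pathway, more were lower than higher in prefix-2010. Of 43 genes in 8 lists, 2 were higher and 9 lower in prefix-2010, which is 25.6% called, beside 12.5% of all genes tested. Their median log2 difference was -0.055, and that of all genes tested was 0.0053. In the low-numbered libraries 1 of the 43 was called, CAMKK1, which is 2.33% beside 5.54% of all genes tested. Between high and low numbers within prefix-2010 none was called by edgeR, and 0% of all genes were. DESeq2 called 1 there, where it called 17 higher and 93 lower over all genes. By edgeR 3 were lower there without the pair of libraries that stood apart, where 14 of all genes were higher and 88 lower. Without the pair of libraries that stood apart 4 were higher and 11 lower in prefix-2010, where 1943 and 1829 of all genes were. Among low numbers 5 were then lower and none higher, where 982 of all genes were lower and 1124 higher. Leaving out 1 library at a time, 1 to 4 were higher and 5 to 10 lower, with 5 lower without replicate 2 and without replicate 4 of prefix-2009. Over all genes 1211 to 2112 were then higher and 951 to 1758 lower. In those fits the call was lost in 18 of 32 for RASGRF1, 14 for PPP3CA, 12 for PCP4, 9 for CAMK2N1 and 4 for GRIN1, and in none for the other 6 genes called. With that score for immature neurons in the model none of the 43 was called between the prefixes, and with the excitatory neuron score 4 were, all lower, where 653 of all genes were lower and 807 higher. The lists were chosen with earlier results of these data known, so the counts are descriptions.

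The largest called difference among these genes was that of a kinase upstream of CaM kinase IV. CAMKK1, a CaM kinase kinase that activates CaM kinase I and IV, averaged 116 ± 24.6 CPM in prefix-2010 and 184.5 ± 39.6 CPM in prefix-2009 (SD, n = 16 and 14), and all 16 libraries of prefix-2010 lay below the median of prefix-2009. Its log2 difference was -0.66 ± 0.11 (adjusted p 0.000468), and it was -0.68 ± 0.15 among low numbers (adjusted p 0.00881). CAMK1D, a CaM kinase I isoform, averaged 50.7 ± 10.4 CPM in prefix-2010 and 68.3 ± 11.6 CPM in prefix-2009, a log2 difference of -0.43 ± 0.094 (adjusted p 0.00349). The other 5 kinases of that list, CAMKK2 among them at 75.4 ± 32.4 CPM in prefix-2010 and 65.5 ± 17.8 CPM in prefix-2009, did not pass.

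Of 13 regulators and partners of CaMKII 4 were called, all lower in prefix-2010, and the other 9 did not pass. Over all genes tested, 5.36% were called lower and 12.5% in either direction. CAMK2N1, an inhibitor protein of CaMKII, averaged 315 ± 76.3 CPM in prefix-2010 and 388 ± 64.6 CPM in prefix-2009 (log2 difference -0.30 ± 0.095, adjusted p 0.0365). It was the 1 called of 4 CaMKII inhibitors and phosphatases. Of 9 partners and substrates, 3 were lower: SYN1, which tethers synaptic vesicles, by -0.41 ± 0.093 (adjusted p 0.00388), the Ras activator RASGRF1 by -0.31 ± 0.10 (adjusted p 0.0413), and the NMDA receptor subunit GRIN1 by -0.21 ± 0.064 (adjusted p 0.0301). GRIN2B, the NMDA receptor subunit to which CaMKII docks, averaged 1196 ± 304 CPM in prefix-2010 and 1215 ± 178 CPM in prefix-2009 and was not called.

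Of 7 genes of calcineurin, the calmodulin-activated phosphatase, 2 were called, and of 7 in the CREB group 1 was, all lower in prefix-2010. Of all genes tested, 12.5% were called in either direction and 5.36% lower. Of 7 calcineurin genes, the catalytic subunit PPP3CA and the regulatory subunit PPP3R1 were lower in prefix-2010, by -0.31 ± 0.10 and -0.31 ± 0.084 (adjusted p 0.0421 and 0.0157). Of 7 CREB factors and coactivators, CRTC1, a calcium-regulated CREB coactivator, was lower by -0.36 ± 0.10 (adjusted p 0.0221), and CREB1 itself averaged 84.8 ± 4.002 CPM in prefix-2010 and 86.5 ± 7.31 CPM in prefix-2009. None of 3 calmodulin genes and none of 3 calmodulin-activated adenylyl cyclases was called.

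Of 3 genes of calmodulin-binding IQ proteins, relatives in function of neurogranin, 2 were called higher in prefix-2010, where 7.12% of all genes tested were. GAP43, a growth cone protein that binds calmodulin at low calcium, averaged 221 ± 46.1 CPM in prefix-2010 and 173 ± 20.02 CPM in prefix-2009, with a log2 difference of 0.36 ± 0.092 (adjusted p 0.00955). PCP4, a small calmodulin-binding protein of neurons, averaged 36.3 ± 11.1 CPM in prefix-2010 and 26.01 ± 8.23 CPM in prefix-2009, with a log2 difference of 0.49 ± 0.15 (adjusted p 0.0347). PCP4L1, the third gene of that list, did not pass.

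Along the immature neuron score more of these genes passed the test. Of the 43 genes, 4 had positive and 14 negative slopes that passed, 41.9% in all, beside 31.7% of all genes tested. With title prefix in the model, 4 of the 43 passed, all with negative slopes, where 793 positive and 925 negative slopes passed over all genes. Of the 43 slopes, 7 positive and 15 negative ones passed without the pair of libraries that stood apart, where 3489 and 3453 did over all genes. The steepest was that of CAMKK1, -0.44 ± 0.037 log2 units per SD (adjusted p 4.21e-11), followed by CAMK1D at -0.30 ± 0.039, SYN1 at -0.27 ± 0.044, CRTC1 at -0.24 ± 0.047, RASGRF1 at -0.23 ± 0.046 and CAMK2N1 at -0.22 ± 0.039. The positive slopes were those of GAP43 at 0.22 ± 0.043, PCP4L1 at 0.21 ± 0.066, the calcineurin regulator RCAN3 at 0.15 ± 0.052 and the calcineurin subunit PPP3CC at 0.090 ± 0.027.

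The genes whose levels were most like those of each member, by Pearson's r of log2 CPM over 32 libraries after removing the mean of each title prefix, differed from member to member. They were taken from genes with a symbol and a mean of at least 10 CPM. For CAMK2B the r values were the highest, with CNRIP1 at 0.97, HPCA, which encodes the calcium sensor hippocalcin, at 0.96, RAB3D at 0.96, CDS2 at 0.95 and ATP8A1 at 0.95. For CAMK2A they were MCTP1 at 0.89, the calcium-binding protein gene CABP1 at 0.88, PGBD5 and MINK1 at 0.87 and WNK4 at 0.86. For CAMK2D they were CDH18, LPHN2, TTC39B, TMEM132D and LRRC4C, between 0.88 and 0.90, and for NRGN ELMO1, TRIM8, IQCK, PLEKHM2 and ANKRD11, between 0.84 and 0.86. No gene was among the 5 of more than 1 member.

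CAMK2G and CAMK4 had no such close partners. For CAMK2G the highest r was 0.73, with LRRC8A, followed by SCAPER, XYLB and PHF19 among others, down to 0.68. For CAMK4 it was 0.80, with GPR158, followed by MGAT5, the neuropeptide gene NPY and LONRF2 among others, at 0.74 to 0.72. Without the pair of libraries that stood apart GPR158 had 0.60 with CAMK4 and NPY 0.44, so the CAMK4 list leans on those libraries. For the first gene of the other members the r without them was 0.85 for CAMK2A, 0.91 for CAMK2B, 0.87 for CAMK2D, 0.66 for CAMK2G and 0.84 for NRGN.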

How the data were processed

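Hippocampal total RNA was depleted of ribosomal RNA and made into stranded TruSeq libraries, per the labels' protocols. The deposited table holds raw read counts per gene, made by the authors with STAR and HTSeq per the submitters' processing notes. Versions, genome build, annotation and strand setting were not given in the sources used here. Rows that count reads outside genes were left out of library sizes; reads in no feature made up 51.3% to 67.1% of a library. In the RefSeq assembly mChlSab1.0.hap1, 0 annotated genes overlap any member. Transcript, protein and promoter sequences were not used here.

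Libraries were scaled by edgeR's TMM factors and filtered by filterByExpr (minimum count 10) in edgeR 4.0.16 under R 4.3.3. Quasi-likelihood tests were fitted on all 32 libraries and all genes past the filter, with p-values adjusted by the Benjamini-Hochberg method and called below 0.05. All 6 members passed the filter. Scores and correlations used log2 CPM with a prior count of 2, for 19959 genes. Of 13 marker lists, 11 were scored; the dentate granule and choroid plexus lists had too few genes past the filter, and TUBB2B and AIF1 were missing from theirs. The smallest p that 100000 resamples can give is 1e-05. DESeq2 1.42.0, limma 3.58.1, other scalings, covariates and leaving out each library were alternatives. Leaving out a pair of libraries that stood apart, the striatal and thalamic covariate and the difference of slopes were added after the data were seen. The code of the main edgeR fits, the permutation test of means and the Benjamini-Hochberg adjustment was tested on simulated data. The other code was not tested in this way.

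The members, lists and tests were chosen with earlier results of these data known. Pathway genes were named where they passed a test, up to 4 per list; the most similar genes were the top 5 by r. A few genes that these rules would name are not reported here. No pair of libraries agreed within counting noise (chi-square per degree of freedom at least 4.47 over 496 pairs). Nothing in the labels says how animals were sampled. The p-values set differences against the spread between these libraries and take the libraries as independent, which could not be checked.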

Additional observations from a re-analysis of the deposited data

Results flagged for a closer look

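Of 32 sets of values tested in the 7 low-numbered and 9 high-numbered libraries of prefix-2010, 5 held a library far from the others, by a gap to the nearest library that was large against the range of the group. Chance flags about 1 in 20 such sets, and the 5 are not independent, since 4 come from replicate 2 of prefix-2010. That library had 229.8 CPM of CAMK2D, where the next highest low-numbered library of prefix-2010 had 129.96 CPM. CAMK2D made up 9.67% of its CAMK2 counts, against 4.54% in the next highest. It also had 0.0670 NRGN counts per CAMK2A count, a log2 ratio of -3.90, where the next highest had 0.0387 and -4.69. The same library had 514 summed CPM of striatal and thalamic markers, and their part in these values was not tested. Replicate 1 of prefix-2010 had 239.9 CPM of CAMK2G, where the next highest had 200.2 CPM, and the lowest CAMK2A to CAMK2B ratio of all libraries, 1.47.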

How the results depend on the processing

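The lower CAMK2A level in prefix-2010 was called under both other scalings, without the count filter, in DESeq2, in limma-trend, with prefix-2010 and prefix-2009 alone and without each of the 32 libraries in turn (log2 difference -0.42 to -0.35). It was also called with a covariate for the mature myelin score (-0.38) or the share of reads in no feature (-0.38). With a covariate for the immature neuron (-0.056), excitatory neuron (-0.18) or striatal and thalamic score (-0.27) it was not called. The cause was not tested. The CAMK2A slope on the immature neuron score was called without each library (-0.27 to -0.22) and not with title prefix as a factor (-0.23), where the NRGN slope was called (-0.37), as it was with a score of unscaled values (-0.16). Leaving out 1 library, the slope of CAMK2B ran from -0.090 to -0.039, of CAMK2D from -0.029 to 0.021 and of NRGN from -0.16 to -0.11. Without both libraries that stood apart CAMK2B passed (-0.087).

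Differences that were not called changed sign in places. For prefix-2010 minus prefix-2009 these were CAMK2G at 0.0098 with library totals alone, 0.0069 with the immature neuron covariate, 0.016 with the striatal and thalamic one and 0.014 without both libraries that stood apart; CAMK2B at 0.052 and CAMK2D at -0.051 with the excitatory covariate; and CAMK2D at -0.088, CAMK4 at -0.017 and NRGN at -0.072 with the striatal and thalamic one. CAMK4 was at -0.017 without both libraries. CAMK2N1 was at 0.087 with the immature neuron covariate. Among low numbers without both libraries CAMK2D was at -0.028 and CAMK2G at 0.0071. For high minus low numbers NRGN was at -0.0049 with library totals alone and CAMK2B at -0.041 without both libraries. The CAMK2D slope was at 0.020 with library totals alone, 0.0078 without the 2 libraries farthest in score and 0.028 without both libraries, and the CAMK2G slope at 0.0025 with library totals alone. Within prefix-2009, the correlation of the CAMK2A to CAMK2B ratio with the inhibitory neuron score was 0.15.

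Leaving out 1 library, the differences of prefix-2010 minus prefix-2009 ran from -0.21 to -0.12 for CAMK2B, 0.12 to 0.32 for CAMK2D (lowest without replicate 2 of prefix-2010), -0.043 to 0.0092 for CAMK2G, 0.025 to 0.10 for CAMK4 (lowest without the same library) and 0.016 to 0.15 for NRGN (lowest without replicate 16 of prefix-2010, highest without replicate 1 of prefix-2009); among low numbers from -0.46 to -0.28 for CAMK2A, -0.094 to 0.28 for CAMK2D and -0.011 to 0.14 for NRGN; and for high minus low numbers from -0.11 to 0.072 for CAMK2A, -0.041 to 0.073 for CAMK2B, -0.034 to 0.34 for CAMK2D and -0.12 to 0.097 for NRGN.

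Of the ratios, the log2 NRGN to CAMK2A difference was lost without replicates 6 or 10 of prefix-2009 or replicate 2 of prefix-2010 (range 0.40 to 0.59) and on the linear scale (0.00905). The CAMK2G share passed as a difference of medians (1.17 percentage points; 1.05 among low numbers), as a log2 ratio to the other CAMK2 genes (0.28) and without both libraries (1.43; 1.24 among low numbers), and its range without 1 library was 0.84 to 1.49. The CAMK2D share passed as such a log2 ratio (0.51) and without both libraries (1.08), with a range of 0.74 to 1.47. Among low numbers the CAMK2A share passed as a difference of medians (-4.69), and the NRGN to CAMK2A ratio as a difference of medians (0.44) and without both libraries (0.42). Without 1 library the low-number ranges were -6.12 to -2.81 for the CAMK2A share, 1.09 to 3.54 for the CAMK2B share, 0.45 to 1.41 for the CAMK2G share, -0.33 to -0.12 for the log2 CAMK2A to CAMK2B ratio and 0.30 to 0.58 for the log2 NRGN to CAMK2A ratio. For high minus low numbers they were -2.46 to 0.84, -0.53 to 1.92, -0.24 to 1.09 and -0.17 to 0.64 for the shares of CAMK2A, CAMK2B, CAMK2D and CAMK2G, -0.16 to 0.042 for the log2 CAMK2A to CAMK2B ratio and -0.067 to 0.17 for the log2 NRGN to CAMK2A ratio.

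Counts of called genes moved as follows. Between prefixes, 0 higher and 0 lower were called with the immature neuron covariate, 807 and 653 with the excitatory one, and 2015 lower with the share of reads in no feature. Among low numbers, 766 lower were called by DESeq2, 982 without both libraries, and 371 to 1429 higher and 133 to 1151 lower without 1 library, fewest without replicate 11 of prefix-2010 and most without replicate 1 of prefix-2009. For high minus low numbers, 17 higher and 93 lower were called by DESeq2, 1 and 3 with library totals alone, 14 and 88 without both libraries, and 0 to 5 and 0 to 18 without 1 library. With title prefix as a factor, 793 positive and 925 negative slopes passed. Of the pairs of members, 1 positive relation passed without the 2 farthest libraries, 0 positive and 1 negative within prefix-2010, and 1 and 1 without both libraries. Of the relations with scores, 8 negative passed without the 2 farthest libraries, 7 positive and 4 negative within prefix-2010, and 2 and 2 within prefix-2009. Leaving out 1 library, 5 to 10 pathway genes were lower in prefix-2010, with the lowest count without replicate 2 or 4 of prefix-2009, and 1 to 4 were higher. Over all genes 951 to 1758 were then lower and 1211 to 2112 higher. No paired analysis was possible because the labels give no replicate numbers.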

Other observations

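The 2 libraries of prefix-2011 entered the fits but no comparison. They had 1768 and 1566 CPM of CAMK2A, 993 and 797 CPM of CAMK2B, 99.5 and 84.2 CPM of CAMK2D, and 176 and 208 CPM of CAMK2G. CAMK4 was at 140.1 and 137 CPM in them, and NRGN at 51.6 and 51.5 CPM. Their CAMK2A to CAMK2B ratios were 1.78 and 1.96, below every library of prefix-2009, and their summed immature neuron markers were 2378 and 2061 CPM, within the range of prefix-2010.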
